A study of Mus musculus with 6 samples.

Results

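In haematopoietic stem cells (HSCs) of the mouse bone marrow, 8 genes of retinoic acid synthesis, sensing and breakdown were described: Cyp26b1, Rara, Rarb, Rarg, Rxra, Rxrb, Aldh1a1 and Stra6. They are 8 of the 46959 rows of gene symbols measured, and 7 of them were among the 12955 rows with at least 1 CPM, a read count scaled to the size of its library, in 3 or more libraries. Stra6 was below that filter, and Cyp26b1 passed it through the control libraries alone. The 8 genes were chosen by name, from a pathway tied to HSC dormancy, with their levels in the same comparison of genotypes in view, so their values are given as a description and without a p-value.

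The RNA came from 3 control and 3 MaeaCsf1r-Cre libraries of HSCs sorted from the bone marrow of adult littermates, 8 weeks old by the series description, each library made from about 2000 cells pooled from a pair of mice. In MaeaCsf1r-Cre mice a Cre recombinase driven by the Csf1r promoter deletes Maea, which encodes a subunit of an E3 ubiquitin ligase. That promoter is best known from monocytes and macrophages, so deletion is not limited to HSCs and other marrow cells can carry it as well. The labels call the other group control and name no allele for it, and a Cre-only group was not analysed here.

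Retinoic acid is made from vitamin A. Retinol is taken up by cells, oxidised to retinaldehyde and then, by enzymes such as ALDH1A1, to retinoic acid. Retinoic acid binds the receptors RARα, RARβ and RARγ, which sit on DNA as pairs with a retinoid X receptor and switch from holding corepressors to holding coactivators when ligand is bound. Enzymes of the CYP26 family break retinoic acid down and so limit how far its signal reaches. In the bone marrow, retinoic acid signalling is known for keeping HSCs dormant, and RARγ for supporting their self-renewal.

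Of the 8 genes, Cyp26b1, Rarb and Rarg were lower in every MaeaCsf1r-Cre library than in any control library. Mean CPM was 10.3 times as high in control as in MaeaCsf1r-Cre HSCs for Cyp26b1, 4.35 times for Rarb and 1.63 times for Rarg. The ratio for Cyp26b1 was 36.8 without MaeaCsf1r-Cre replicate 3 and 7.24 to 11.4 without any other library, and that for Rarb was 2.86 without control replicate 3. Rara, Rxra, Rxrb and Aldh1a1 had overlapping groups, and Stra6 was at 0 or at 1 read. Thus 3 of the 7 filtered genes were lower without overlap and 0 were higher without overlap, beside 6.06% of all tested rows that were lower without overlap and 2.49% that were higher. None of the 7 had an adjusted p under 0.05 in limma, whether or not the replicate number was fitted as a block, beside 0.00772% of all rows in either fit. At an unadjusted p under 0.05 the counts were 2 of 7 without the block, beside 3.99% of all rows, and 3 of 7 with it, beside 13.9%. Because the comparison itself helped choose the genes, nothing is read from these counts.

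**Figure D1:**
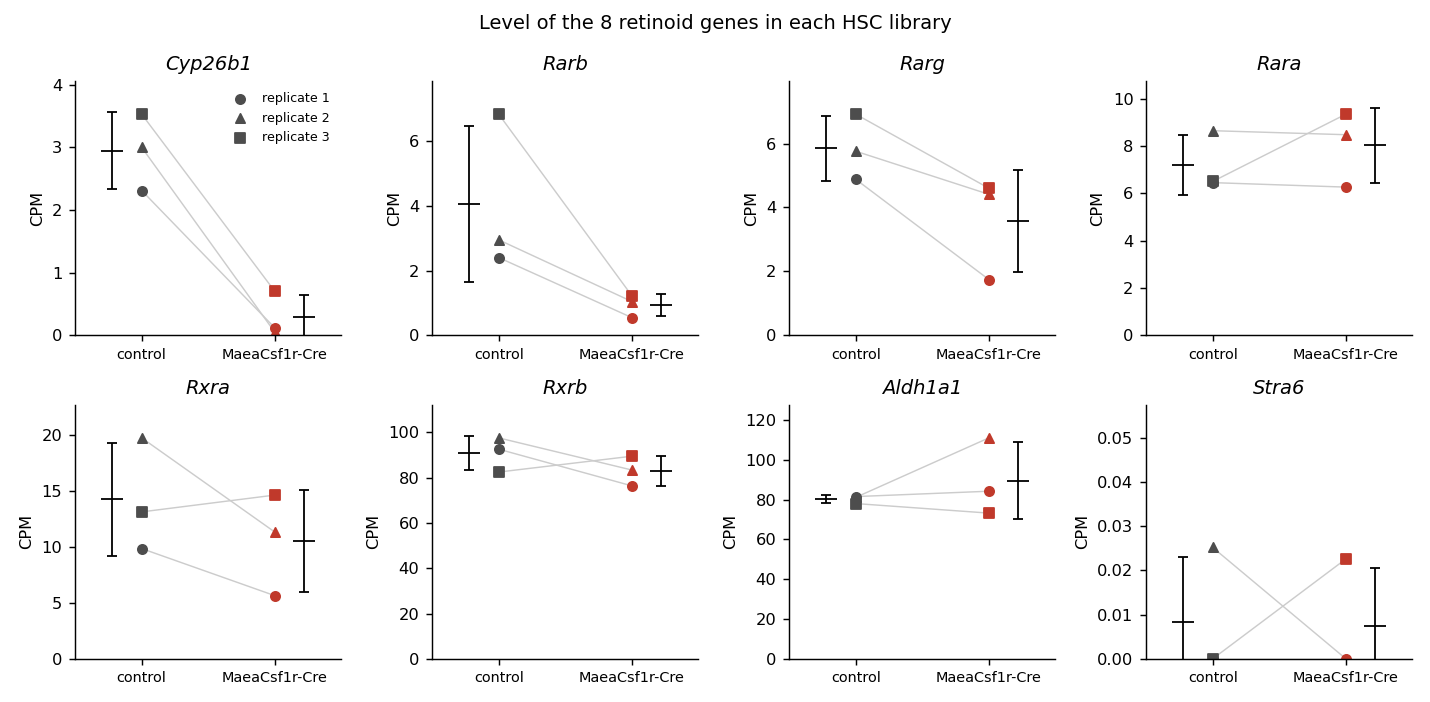
Level of each of the 8 genes in CPM (y axis, starting at 0) in the control (grey) and MaeaCsf1r-Cre (red) libraries. Symbols and thin lines mark the replicate number, and the bars beside the points are the mean ± SD of 3 libraries, cut at 0 where the SD reaches below it. Cyp26b1, Rarb and Rarg have no overlap between the groups, and the Stra6 axis spans the value of a few reads.

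The stretches of DNA just before the starts of these 3 genes are shown because they are the genes with separated groups, and because Rarb is a textbook target of its own receptors. Retinoic acid receptor pairs bind repeats of a core site, which is AGGTCA or a form with G as the first or T as the third letter, and a repeat with a spacer of 5 bases is named DR5, with 2 bases DR2 and with 1 base DR1. The sequences below are the 250 bases before 1 RefSeq start of each gene in build GRCm38.p6, for Rarg the first of 2 windows. They are written 5′ to 3′ on the strand of the gene, which is the minus strand for all 3. The starts shown for Rarb and Cyp26b1 lie inside the spans given for those genes below, so part or all of each stretch does too. Which starts these cells use was not tested. Capitals mark a DR5 repeat in Rarb and the letters TATAAA in Cyp26b1.
Rarb, chr14:16575477-16575726: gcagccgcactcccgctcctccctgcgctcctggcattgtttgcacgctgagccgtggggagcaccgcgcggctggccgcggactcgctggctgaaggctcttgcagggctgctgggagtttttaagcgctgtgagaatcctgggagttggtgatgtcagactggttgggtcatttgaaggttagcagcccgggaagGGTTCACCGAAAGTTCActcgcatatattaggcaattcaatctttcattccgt
Cyp26b1, chr6:84593811-84594060: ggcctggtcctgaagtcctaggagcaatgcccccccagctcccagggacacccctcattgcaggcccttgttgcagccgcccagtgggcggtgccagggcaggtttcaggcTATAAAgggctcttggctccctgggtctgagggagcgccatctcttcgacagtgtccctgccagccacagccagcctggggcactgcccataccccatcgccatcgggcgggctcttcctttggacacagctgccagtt
Rarg, chr15:102257523-102257772: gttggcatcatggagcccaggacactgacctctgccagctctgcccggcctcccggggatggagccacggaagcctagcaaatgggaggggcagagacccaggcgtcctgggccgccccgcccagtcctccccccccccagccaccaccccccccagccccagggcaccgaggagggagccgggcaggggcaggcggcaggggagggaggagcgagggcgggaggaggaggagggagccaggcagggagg

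RefSeq gave at least 1 window of 300 bases, 250 before and 50 after a start, for all 8 genes. The DR5 repeat of Rarb ran from 53 to 37 bases before the RefSeq start shown. It was the only DR5, DR2 or DR1 repeat on either strand of any window of the 8 genes. Over 32851 windows of all genes, 0.0974% held a DR5, 0.268% a DR2 and 0.222% a DR1. TATAAA, from 139 to 134 bases before the RefSeq start of Cyp26b1 shown, was found in 13.6% of windows on either strand. At chr6:84593944-84593949 it is nearer to the end of the annotated gene span, 84593908, and lies just outside it. Cyp26a1, the relative of Cyp26b1 best known as a target of retinoic acid, holds a DR5 on the opposite strand from 32 to 16 bases before its start, shown in capitals in 72 bases of the plus strand.
Cyp26a1, chr19:37697736-37697807: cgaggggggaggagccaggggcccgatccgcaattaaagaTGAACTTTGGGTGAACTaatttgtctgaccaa
Cyp26a1 was at 0 CPM in all 6 libraries, whereas Rarb was detected in all 6. A match of letters is a description of the window, and binding was not measured here.

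Cyp26b1 (ENSMUSG00000063415.12, minus strand, chr6:84571414-84593908 in mm10) encodes the retinoic acid hydroxylase that clears retinoic acid in many tissues. Controls numbered 1, 2 and 3 had 2.31, 3.0 and 3.53 CPM, and their MaeaCsf1r-Cre counterparts 0.115, 0.0453 and 0.699 CPM. The lowest control library thus exceeded the highest MaeaCsf1r-Cre library, and the MaeaCsf1r-Cre libraries spread more widely in proportion than the controls. In reads, the controls held 76, 119 and 121, and the MaeaCsf1r-Cre libraries 7, 2 and 31, although the latter were sequenced more deeply. The value of 2 reads is under the 3 reads taken as the limit of detection, which for that library was 0.0679 CPM. Group means were 2.95 ± 0.617 and 0.286 ± 0.359 CPM (SD, n = 3 each). On the log2(CPM + 1) scale the difference was -1.64 with an SE of 0.27. The added 1 CPM understates differences of low genes, and with 0.1 CPM added in its place the difference was -3.36.

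The other enzymes of retinoic acid breakdown gave little signal. None of the 4 listed genes passed the filter. Beside Cyp26a1, Cyp26c1 reached at most 0.0226 CPM. Cyp1b1, a cytochrome P450 of wider substrate range, was at 0.117 CPM in control replicate 3 and at 0 elsewhere, and Cyp2s1 reached at most 0.379 CPM. Cyp26b1 was therefore the 1 gene of the CYP26 family above 0.1 CPM in any library, and in control HSCs it was above 2 CPM in all 3.

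Rarb (ENSMUSG00000017491.9, minus strand, chr14:16430839-16819156) encodes RARβ, the receptor whose own transcription retinoic acid is known to raise. Control libraries held 2.40, 2.95 and 6.84 CPM, and MaeaCsf1r-Cre libraries 0.542, 1.04 and 1.22 CPM. Control replicate 3 stood above the other controls, and without it the groups were still apart. Group means were 4.06 ± 2.42 and 0.934 ± 0.351 CPM (SD, n = 3), and the log2 difference was -1.30 with an SE of 0.35. Without control replicate 3 the log2 difference was -0.94.

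Exons of Rarb overlap those of another gene, and since the library kit did not keep strand, reads of the genes cannot be told apart there. Top2b, which encodes DNA topoisomerase IIβ, lies on the opposite strand and shares 1793 of the 5265 exon bases of Rarb, or 34.1%. Top2b averaged 97.5 ± 10.3 CPM over controls and 80.0 ± 10.2 CPM over MaeaCsf1r-Cre libraries (SD, n = 3), a log2 difference of -0.28 with an SE of 0.14. In MaeaCsf1r-Cre replicate 1, Top2b was at 90.5 CPM and Rarb at 0.542 CPM, so reads of Top2b counted to Rarb came to no more than 0.542 CPM there. An antisense gene, Gm48162, covers a further 4.31% of the Rarb exon bases. How much of either gene was counted to Rarb was not tested.

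Rarg (ENSMUSG00000001288.15, minus strand, chr15:102234938-102257517) encodes RARγ and shares exon bases with no other gene of the annotation. Its control libraries were at 4.88, 5.76 and 6.92 CPM and its MaeaCsf1r-Cre libraries at 1.74, 4.41 and 4.60 CPM. The groups did not overlap, but MaeaCsf1r-Cre replicates 2 and 3 lay within 0.5 CPM of the lowest control. Means were 5.85 ± 1.02 and 3.58 ± 1.60 CPM (SD, n = 3), with a log2 difference of -0.64 and an SE of 0.31. Without MaeaCsf1r-Cre replicate 1 the difference was -0.31, so the size of the Rarg difference rests largely on that library.

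Rara (ENSMUSG00000037992.16, plus strand, chr11:98927818-98974942) encodes RARα, the receptor found in most blood cell types. It was at 6.46, 8.66 and 6.51 CPM in control and at 6.27, 8.49 and 9.36 CPM in MaeaCsf1r-Cre libraries. The values interleaved, and the log2 difference of 0.13 was smaller than its SE of 0.22. The difference ran from -0.03 to 0.29 over the alternatives tried.

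The RAR genes can also be read as shares of their sum in each library. Rara took 47.0, 49.9 and 32.1% of the summed CPM of the RAR genes in the control libraries and 73.3, 60.9 and 61.7% in the MaeaCsf1r-Cre libraries. Rarb took 17.4, 17.0 and 33.7% against 6.33, 7.47 and 8.02%. The share of Rarg was 33.1 to 35.5% in control and 20.3 to 31.6% in MaeaCsf1r-Cre libraries. None of these shares overlapped between the groups. The sum itself was 13.7, 17.4 and 20.3 CPM in control and 8.55, 13.9 and 15.2 CPM in MaeaCsf1r-Cre libraries, with overlap. These shares are made from the values already given and are no separate evidence. They compare genes of similar transcript length but are not scaled by length.

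**Figure D2:**
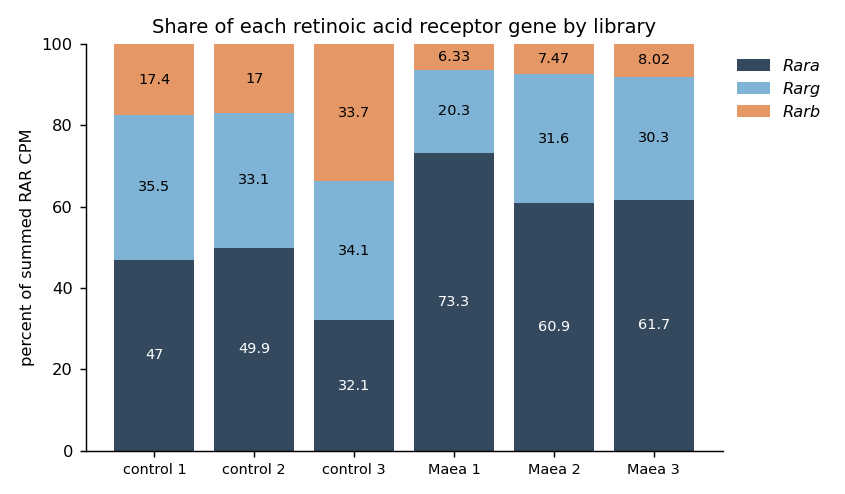
Percent of the summed CPM of Rara, Rarg and Rarb taken by each gene (stacked bars, y axis) in each of the 6 libraries (x axis, Maea standing for MaeaCsf1r-Cre). Rara takes 32.1 to 49.9% in control and 60.9 to 73.3% in MaeaCsf1r-Cre libraries, and Rarb is under 8.1% in each of the latter.

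The retinoid X receptors are the shared partners of the RARs and of several other nuclear receptors. Rxra (ENSMUSG00000015846.14, plus strand, chr2:27676440-27762957) was at 9.83, 19.7 and 13.1 CPM in control and at 5.63, 11.3 and 14.6 CPM in MaeaCsf1r-Cre libraries. Replicates numbered 1 and 2 were lower in MaeaCsf1r-Cre HSCs by 0.71 and 0.75 on the log2 scale, while replicate 3 was higher by 0.14. The difference over all libraries was -0.44 with an SE of 0.36, and -0.08 without MaeaCsf1r-Cre replicate 1.

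Rxrb (ENSMUSG00000039656.17, plus strand, chr17:34031812-34038399) was the most abundant receptor of the set. It was at 92.6, 97.6 and 82.5 CPM in control and at 76.4, 83.4 and 89.5 CPM in MaeaCsf1r-Cre libraries, with overlap. Means were 90.9 ± 7.69 and 83.1 ± 6.57 CPM (SD, n = 3) and the log2 difference was -0.13 with an SE of 0.12. Rxrg, the remaining RXR gene, did not pass the filter and reached at most 0.0226 CPM.

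Rxrb lies in the major histocompatibility region, and 6 of its neighbours were listed. Of these, Slc39a7, H2-Ke6, Ring1 and H2-K1 had log2 differences between -0.11 and 0.09. Col11a2, which encodes a collagen chain, was at 2.43, 3.0 and 2.22 CPM in control and at 0.525, 1.09 and 0.767 CPM in MaeaCsf1r-Cre libraries. H2-K2, a class I histocompatibility gene, was at 1.09, 1.5 and 0.81 CPM against 7.87, 13.0 and 3.44 CPM. The groups of both genes were apart, in opposite directions, but the limma adjusted p over all rows was 0.967 for Col11a2 and 0.894 for H2-K2, and 0.198 and 0.0868 with the replicate block. Reads of H2-K2 can be shared with near-identical class I genes such as H2-K1, so its level is uncertain.

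Aldh1a1 (ENSMUSG00000053279.8, plus strand, chr19:20492715-20643465) encodes the retinaldehyde dehydrogenase long used to mark stem cells by enzyme activity. It was at 81.5, 81.1 and 78.0 CPM in control and at 84.2, 111 and 73.2 CPM in MaeaCsf1r-Cre libraries. The controls lay close together, whereas MaeaCsf1r-Cre libraries lay on both sides of them. The log2 difference was 0.13 with an SE of 0.16, and -0.03 without MaeaCsf1r-Cre replicate 2. Its value lay within 0.1 of a whole number of reads in 1 of 6 libraries, whereas Cyp26b1, Rarb, Rara and Rxra were on whole reads in all 6. Rxrb also met this limit in 1 of 6 libraries. Its reads before rounding were 3053.84, 3864.93 and 2823.83 in control and 4653.82, 3680.72 and 3967.90 in MaeaCsf1r-Cre libraries. All lay a little under a whole number, and a small error in the scaling shifts genes of many reads most. The 0.1 limit therefore cannot tell whether Rxrb was on whole reads. Aldh1a7, a close relative for which reads may be shared, was at 16.7, 13.0 and 9.13 CPM against 16.7, 6.63 and 12.2 CPM.

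Stra6 (ENSMUSG00000032327.14, plus strand, chr9:58063788-58153996) encodes a membrane receptor for retinol bound to its carrier in plasma. It had 1 read in control replicate 2 and 1 in MaeaCsf1r-Cre replicate 3, and 0 in the other 4 libraries. At 3 reads, a count of 0 allows a level of up to 0.0492 to 0.0910 CPM depending on the library. These limits and all read intervals cover counting error only. Both groups were at or under this limit, so no fold change is given.

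The genes could be ranked by CPM per kilobase of 1 annotated transcript each. In control HSCs, Rxrb had 34.6 and Aldh1a1 34.0 CPM per kilobase, a difference within the spread of the libraries. Rxra followed at 2.90, Rara at 2.13, Rarg at 1.98 and Rarb at 1.31 CPM per kilobase, and each of these overlapped its neighbour in the order. Cyp26b1 was next at 0.656 CPM per kilobase. Its highest control value, 0.786, overlapped the lowest of Rarb, 0.771, and Stra6 came last at 0.00273. In MaeaCsf1r-Cre HSCs Aldh1a1 led with 37.9 and Rxrb had 31.6, followed by Rara at 2.38, Rxra at 2.14, Rarg at 1.21, Rarb at 0.300, Cyp26b1 at 0.0637 and Stra6 at 0.00244 CPM per kilobase. There, neither Rarg and Rarb nor Rarb and Cyp26b1 overlapped. Rxrb and Aldh1a1 thus held the top of the order in both groups, and Rarb and Cyp26b1 stood last of the detected genes in both.

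**Figure D3:**
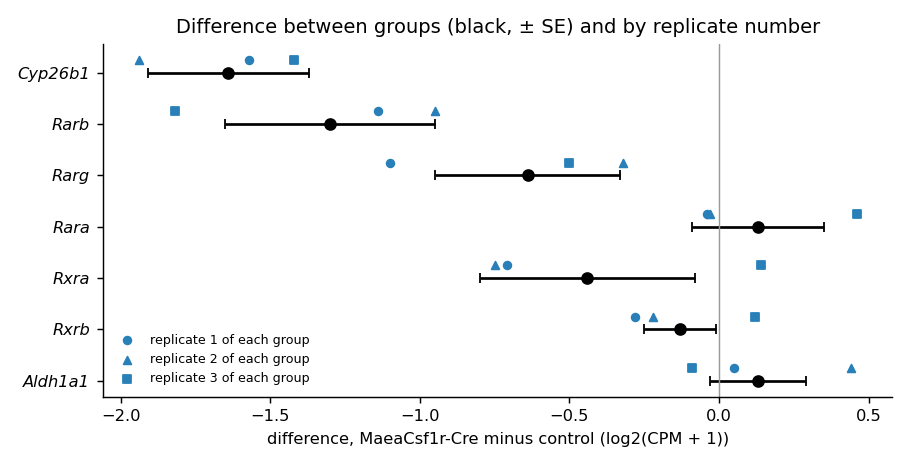
Difference between MaeaCsf1r-Cre and control HSCs on the log2(CPM + 1) scale (x axis) for the 7 filtered genes. Black points with bars are the difference of group means ± SE from limma, and blue symbols are the differences between libraries of the same replicate number. Cyp26b1, Rarb and Rarg are below 0 for all 3 numbers, and the other 4 genes have numbers on both sides of 0.

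Libraries of the same replicate number deviated together across genes, so the differences are also given by number. For Cyp26b1 they were -1.57, -1.94 and -1.42 on the log2 scale for numbers 1, 2 and 3, for Rarb -1.14, -0.95 and -1.82, and for Rarg -1.10, -0.32 and -0.50. Blocking on the replicate number gave an SE of 0.21 for Cyp26b1, 0.24 for Rarb and 0.21 for Rarg. The genes did not share 1 pattern: Rarb differed most in number 3, Rarg in number 1 and Cyp26b1 in number 2.

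For each filtered gene, the rows with the closest profile over the 6 libraries were found by the root mean square (RMS) difference of log2(CPM + 1) after centring. For Cyp26b1 they included Unc5a (0.273) and Fcer1g (0.279), beside an RMS spread of 0.860 for Cyp26b1 itself. Fcer1g encodes the signalling chain of several Fc receptors, and was at 13.3, 13.3 and 12.6 against 2.64, 3.87 and 7.69 CPM. For Rarb the closest were Tmem47 (0.132), Hspb8 (0.206) and Trpc6 (0.242), and for Rarg they were Mycn (0.086), Ern1 (0.093) and Gimap8 (0.096). Mycn, a MYC family transcription factor, was at 133, 156 and 192 CPM in control and at 74.1, 128 and 138 CPM in MaeaCsf1r-Cre libraries. The closest rows to Rxra were Myadm, Lsp1 and Nfkbie, to Rara Zfp362, Relt and B330016D10Rik, to Rxrb Psd4, Fam213a and Rilpl2, and to Aldh1a1 Gm37194, Gm16845 and Pot1b. Among the 8 genes themselves, the closest pair was Rara and Rxrb (0.181), both with little spread, while the RMS difference was 0.285 for Rarg and Rxra and 0.359 for Cyp26b1 and Rarb. With 6 libraries in 2 groups, a close profile describes these libraries only.

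The wider pathway was read from 7 lists holding 89 other genes, of which 52 passed the filter. None of the 52 had an adjusted p under 0.05, the smallest limma value being 0.967, and 0.218 with the replicate block. At an unadjusted p under 0.05 there were 3 lower and 0 higher genes, and 10 lower and 0 higher with the replicate block, beside 3.99% and 13.9% of all rows in either direction. The log2 difference was below 0 for 42 genes and above 0 for 10, with a median of -0.17 beside -0.06 for all tested rows. Rescaling by median ratios moved the median of all tested rows to 0.00. The share of all rows below 0 was not counted, so nothing is read from the counts below 0, here or in the lists that follow. Groups were lower without overlap for 8 of the 52 genes and higher without overlap for 0, beside 6.06% and 2.49% of all rows.

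Of the uptake and binding genes 3 of 10 passed the filter. Fabp5, which carries fatty acids and retinoic acid in the cell, was at 49.6, 39.6 and 65.0 CPM in control and at 71.2, 75.1 and 58.8 CPM in MaeaCsf1r-Cre libraries. Scarb1, a lipoprotein receptor that also takes up carotenoids, had a log2 difference of 0.12. Both had overlapping groups. Crabp1 and Crabp2, which carry retinoic acid, Ttr, which takes part in carrying retinol in plasma, and Stra6l, a receptor related to Stra6, were at 0 in all 6 libraries.

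Among genes of storage and synthesis 12 of 25 passed the filter, 10 below 0 and 2 above. The smallest unadjusted p values were those of Rdh10, Rdh14 and Rdh12, members of the retinol dehydrogenase family. Rdh10, which makes retinaldehyde, was at 11.1, 8.76 and 9.99 CPM against 10.6, 6.18 and 5.91 CPM, a log2 difference of -0.39 with overlap. The relatives of Aldh1a1 that make retinoic acid in the embryo were near 0, Aldh1a2 reaching 0.152 and Aldh1a3 0.361 CPM. Aldh1a1 was thus the 1 retinaldehyde dehydrogenase of this trio above 1 CPM. Lrat, which stores retinol as esters, was at 0 in all libraries. Dgat1, which esterifies lipids and retinol, was the 1 tested gene here that was lower without overlap, though its closest values both rounded to 11.5 CPM.

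Of the 9 coactivators, Ncoa2, Ncoa3 and Ep300 were lower in every MaeaCsf1r-Cre library than in any control library, beside the same 6.06% of all rows. Ncoa2, a p160 coactivator of nuclear receptors, was at 73.0, 89.1 and 84.3 CPM against 55.3, 71.2 and 65.9 CPM, a log2 difference of -0.35 with an SE of 0.14. Ncoa3, its relative, differed by -0.38 and Ep300, a histone acetyltransferase, by -0.28. The limma adjusted p was 0.967 for each of them, and 0.230, 0.265 and 0.399 with the replicate block. Of the 8 corepressors, Tbl1xr1 and Tbl1x, which exchange corepressors for coactivators on receptors, were lower without overlap, with log2 differences of -0.26 and -0.17. The median log2 difference was -0.16 for coactivators and -0.12 for corepressors.

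The list of RXR and partner receptors held 15 genes, Rxrg among them, of which 12 passed the filter, 11 below 0 and 1 above. Whether each listed receptor pairs with RXR was not tested. Thrb, a thyroid hormone receptor, was at 1.27, 3.64 and 2.28 CPM in control and at 0.361, 1.52 and 1.24 CPM in MaeaCsf1r-Cre libraries. Nr1h3, which encodes the oxysterol receptor LXRα, was at 1.09, 1.03 and 3.04 against 0.476, 0.702 and 0.902 CPM, without overlap. Nr2c2, which encodes the orphan receptor TR4, was also lower without overlap, with a log2 difference of -0.24. Vdr, the vitamin D receptor, was at 19.1, 31.9 and 31.3 against 10.1, 21.4 and 26.9 CPM. The limma adjusted p of all 4 was 0.967.

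The listed targets of retinoic acid gave no call either, with 11 of 23 filtered, 10 below 0 and 1 above. Hoxa5, a homeobox gene with a retinoic acid response element, was at 1.85, 3.49 and 4.41 CPM in control and at 1.36, 1.18 and 1.92 CPM in MaeaCsf1r-Cre libraries. Its log2 difference was -0.73 with an SE of 0.29 and a limma adjusted p of 0.967. Rai1, named for its induction by retinoic acid, differed by -0.26 and Dhrs3, which turns retinaldehyde back into retinol, by -0.34, both with overlap. Stra8, the target best known from germ cells, had its highest level at 0.0164 CPM. Hoxb4 was the 1 target above 0, at 0.637, 1.26 and 1.26 against 1.07, 1.36 and 1.38 CPM.

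Genes tied to HSC dormancy or its loss were listed because retinoic acid signalling has been linked to that state. All 12 passed the filter, 9 below 0 and 3 above, and none had an adjusted p under 0.05 in limma. At an unadjusted p under 0.05 there were 0 genes without and 7 with the replicate block, 5 lower and 2 higher, beside 3.99% and 13.9% of all rows in either direction. Cdkn1c, which encodes the cell cycle inhibitor p57, was at 11.6, 25.6 and 27.4 CPM in control and at 4.76, 13.1 and 15.7 CPM in MaeaCsf1r-Cre libraries. Its log2 difference was -0.94, with a limma adjusted p of 0.967, and 0.141 with the replicate block. Mki67, a gene of cycling cells, was at 120, 125 and 149 against 175, 141 and 177 CPM, and Cdk6, a kinase of cell cycle entry, at 416, 348 and 329 against 468, 494 and 381 CPM. Both were higher for all 3 replicate numbers but with overlap between groups. Gprc5c, a receptor gene used to mark dormant HSCs, was at 0.516, 1.14 and 1.40 against 0, 0.113 and 2.77 CPM, so its highest value was in a MaeaCsf1r-Cre library.

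**Figure D4:**
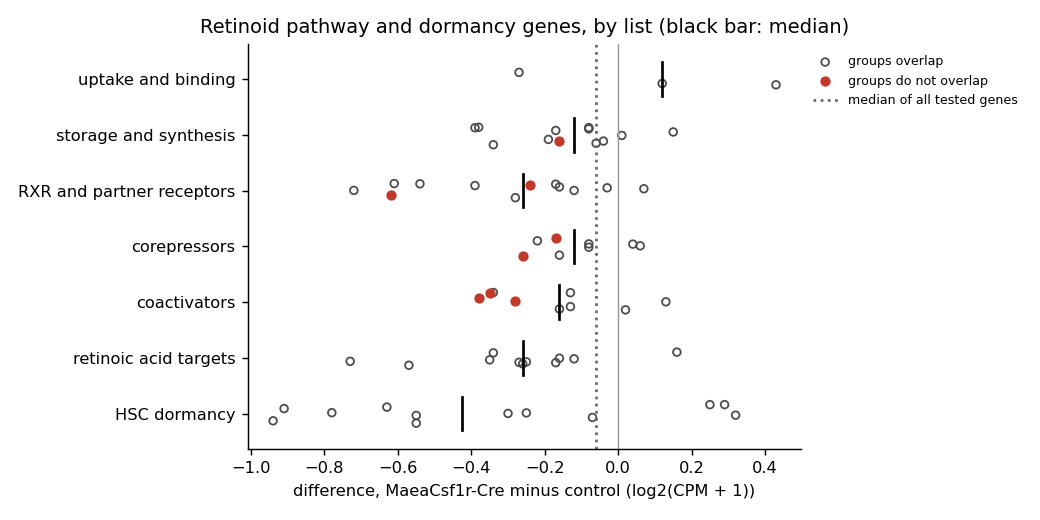
Difference between MaeaCsf1r-Cre and control HSCs on the log2(CPM + 1) scale (x axis) for each tested gene of 6 retinoid pathway lists and the dormancy list (rows), none of which holds the 8 genes. The breakdown list had no tested gene. Filled red points are genes whose groups do not overlap, open points those that overlap, black bars the median of a list, and the dotted line the median of all tested rows at -0.06. All 8 filled points are below 0.

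Maea itself was lower in the libraries labelled MaeaCsf1r-Cre. It was at 108, 116 and 123 CPM in control and at 76.9, 88.6 and 101 CPM in MaeaCsf1r-Cre libraries, without overlap and far from 0. Its limma adjusted p was 0.967, and 0.218 with the replicate block. Reads were summed over the whole gene, so transcripts that lack the deleted part may still be counted. The reads behind the scaling numbered 32966000 to 39612000 in control and 44155000 to 60934000 in MaeaCsf1r-Cre libraries. The 6 listed genes of the sorting gate and of HSC identity, Slamf1, Ly6a, Kit, Procr, Fgd5 and Cd48, were detected in every library. Cd48, whose protein the gate excludes, was at 33.5, 19.4 and 12.4 CPM in control and at 46.5, 22.1 and 15.8 CPM in MaeaCsf1r-Cre libraries. The sum of the 6 was 687 to 884 CPM in control and 536 to 746 CPM in MaeaCsf1r-Cre libraries. Most of it was Kit, with a log2 difference of -0.38, while 3 of the 6 genes were below 0 and 3 above.

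Markers of other marrow cells moved with some of these values. In bulk samples, fewer cells of a type and less RNA per cell cannot be told apart. Of 10 macrophage markers 6 were tested, and 5 of these were below 0. Their summed level was 44.8 to 136 CPM in control and 33.6 to 90.6 CPM in MaeaCsf1r-Cre libraries. C1qa, C1qb and C1qc, which encode complement C1q, were lower without overlap, C1qb being at 8.98, 3.79 and 5.37 CPM against 0.0328, 0 and 0.474 CPM. The other tested markers, Vcam1, Cd68 and Slc40a1, had overlapping groups, with log2 differences of -1.99, -0.38 and 0.12. Slc40a1 was the largest part of the summed level in each library, at 76.5, 28.4 and 37.0 CPM against 70.9, 27.2 and 53.3 CPM. The sum therefore does not describe the C1q genes. Csf1r, the macrophage growth factor receptor, was at 7.89, 3.39 and 2.31 against 0.369, 2.18 and 0.141 CPM. Cyp26b1 shared with C1qb the order of high controls, near-absent MaeaCsf1r-Cre replicates 1 and 2 and a low value in replicate 3. Within the controls the order differed, since C1qb was highest in replicate 1, where Cyp26b1 was lowest. The part of macrophage RNA in the values of Cyp26b1 was not tested.

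Markers of endothelium were highest in replicate 3 of both groups. Of 9 stromal and endothelial markers 5 were tested, all below 0, and the sum was 57.2 to 116 CPM in control and 24.4 to 119 CPM in MaeaCsf1r-Cre libraries. Cdh5, which encodes VE-cadherin, was at 5.82, 0.278 and 13.0 CPM in control and at 0.624, 0.566 and 22.1 CPM in MaeaCsf1r-Cre libraries, and Kdr, a VEGF receptor, at 12.4, 2.52 and 32.6 against 2.33, 2.49 and 33.4 CPM. Cyp26b1 and Rarb were also highest in number 3 of each group. In control replicate 2, where Cdh5 was at 0.278 CPM, Cyp26b1 was at 3.0 and Rarb at 2.95 CPM. On the 4 libraries numbered 1 and 2 alone, chosen after seeing the data, the log2 difference was -1.75 for Cyp26b1, -1.05 for Rarb and -0.71 for Rarg. In number 1, Cdh5 and Kdr were lower in the MaeaCsf1r-Cre library as well. In number 2, Cdh5 was higher there, and Kdr and Pecam1 were about level. Emcn, an endothelial marker, was at 8.25, 14.4 and 16 CPM in control and at 3.36, 5.07 and 15.4 CPM in MaeaCsf1r-Cre libraries. Col1a2, a collagen gene, was at 2.55, 2.78 and 6.75 against 0.968, 1.18 and 4.44 CPM. Emcn and Col1a2 were thus lower in the MaeaCsf1r-Cre library for all 3 numbers, Emcn by only 0.05 on the log2 scale in number 3. The part of endothelial RNA in the values of Cyp26b1, Rarb and Rarg was not tested.

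**Figure D5:**
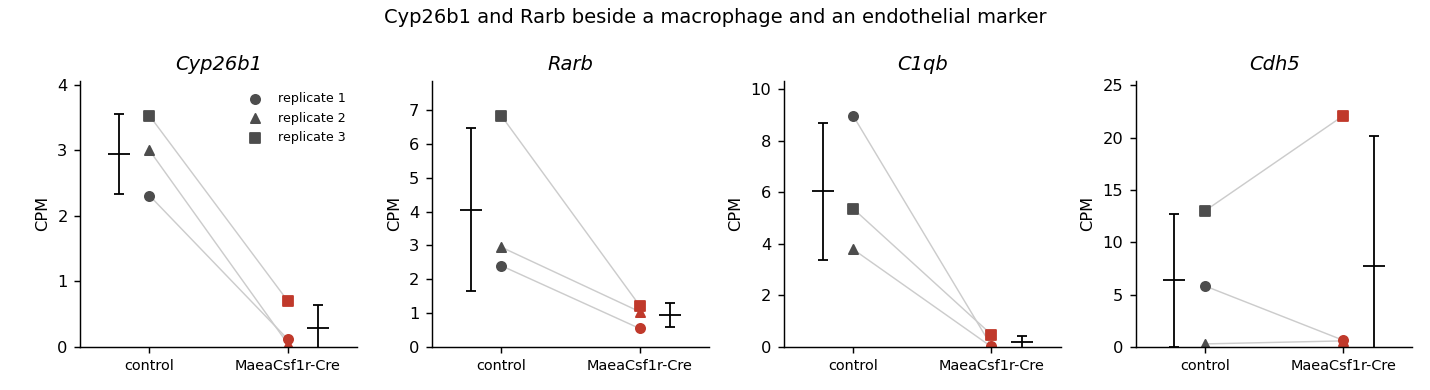
Level in CPM (y axis, starting at 0) of Cyp26b1 and Rarb beside C1qb, a macrophage marker, and Cdh5, an endothelial marker, in control (grey) and MaeaCsf1r-Cre (red) libraries. Symbols and thin lines mark the replicate number, and bars are the mean ± SD of 3 libraries, cut at 0. C1qb is apart between groups as Cyp26b1 is, while Cdh5 is highest in replicate 3 of both.

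The summed level of B cell markers was also apart between the groups. Of 8 B cell markers 2 were tested, both below 0, and the sum was 33.8 to 55.4 CPM in control and 13.9 to 27 CPM in MaeaCsf1r-Cre libraries, with Pax5 and Igll1 at 0 in all. Ighm, the immunoglobulin μ chain gene, was at 16.9, 29.5 and 7.51 CPM against 0.279, 0.838 and 2.26 CPM. Of 8 neutrophil markers 2 were tested and Ly6g was at 0 throughout, with sums of 27.8 to 219 and 4.58 to 114 CPM. Erythroid markers summed to 807 to 3793 and 1588 to 4029 CPM, and megakaryocyte markers to 219 to 986 and 294 to 612 CPM. Car1, an erythroid carbonic anhydrase, was highest in number 1 of each group, at 3356 and 3645 CPM. Rara, Rarb, Rarg and Rxra had their lowest value in each group in those same libraries, Rara only narrowly among the controls. The part of these cells in the receptor values was not tested.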

How the data were processed

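RNA from HSCs sorted as Lin- Sca-1+ c-kit+ CD150+ CD48- cells was amplified with SMART-Seq v4, prepared with Nextera XT, which keeps no strand, and sequenced single-end. Per the submitters' notes and methods, the authors used Trim Galore, STAR 2.5.3a and build mm10, assigned reads to Ensembl transcripts and used Partek for normalisation. What was deposited is CPM for each library, with 0.0001 added to every value, which was subtracted here. Of 46959 rows, 27 symbols had been turned into dates and 2 repeated the symbol of an earlier row. Summed over rows, the CPM came to 75.2 to 80.2% of what full scaling would give, and 79.8 to 82.1% of low values lay within 0.1 of a whole read, so the table could not be turned back into counts and no count test was run. Reads given for single genes are the CPM times the reads behind the scaling, rounded, and are exact only where the product was whole.

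Rows that reached 1 CPM in 3 or more libraries were fitted on log2(CPM + 1) with limma 3.58.1 in R 4.3.3, a linear model with a mean-variance trend and a two-sided moderated test, MaeaCsf1r-Cre against control on all 6 libraries, with Benjamini-Hochberg adjustment over all tested rows and a threshold of 0.05. The script was tested on simulated data. Deviations from the group means correlated between libraries of one number (Pearson's r 0.627, 0.523 and 0.397 over tested rows, against -0.459 to -0.0538 for other numbers). Deviations cancel within a group, so positive values for one number force negative values elsewhere, and the contrast is partly built in. Because libraries of one number correlated, fits with the replicate number as a block are given where they move a count. The pairing comes from the numbers in the sample titles, and per the methods each library is its own pool of mice, so p-values measure the spread between these pools. The alternatives were another pseudocount, filter, scaling and trend, and each library left out.

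The 8 genes and the lists were chosen with earlier results of these data known. Named were all 8 genes, of each pathway list every gene past the threshold and up to 3 tested genes with the smallest unadjusted p, all genes of a list of 5 or fewer, Maea, Csf1r, the Rxrb neighbours and the 3 closest profiles per tested gene. The values of a few genes that this rule names are not reported here. Genes with separated groups, those at 0 and the further markers, target genes and dormancy genes given with values were added after their values were seen. Coordinates and lengths come from GENCODE M21, a later annotation than that of the authors, in which 44191 rows had a match. Promoter windows are from RefSeq, build GRCm38.p6.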

Additional observations from a re-analysis of the deposited data

How the results depend on the processing

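The count of genes past the threshold was 1 of 12955, and 1 with the replicate block, with a pseudocount of 0.1, with no filter (another gene, Cd209f, in place of BC023719), under both rescalings and without the mean-variance trend. It was 0 with a filter at a CPM of 10 and 0 on the 4 libraries numbered 1 and 2, a setting chosen after seeing the data. The count ran from 0 to 1 when each library was left out (0 without control replicate 2 or 3 or MaeaCsf1r-Cre replicate 1 or 2). The 1 gene was BC023719 without control replicate 1, but Rps18-ps3 without MaeaCsf1r-Cre replicate 3. Beside the 0 at a CPM of 10, limma gave 302 genes at an unadjusted p under 0.05. The count among the pathway and dormancy genes was 0 in each of these settings, leave-one-out included. The replicate block changed no call among the genes named. The log2 differences of Cyp26b1 (-3.36 to -1.45), Rarb (-1.93 to -0.94), Rarg (-0.82 to -0.31), Rxra (-0.73 to -0.08) and Rxrb (-0.25 to -0.07) were below 0 in every alternative run, while Rara (-0.03 to 0.29) and Aldh1a1 (-0.03 to 0.26) were each below 0 in 1. The pseudocount gave the lowest value of Cyp26b1 and of Rarb, as it must for low levels. Cyp26b1 fell under the filter when a control was left out, and on the rows of the full fit, also chosen after seeing the data, it was -1.76 to -1.53 there. The ratio of group means of Cyp26b1 was 7.24 to 36.8 when each library was left out. Depth limits Stra6 and the MaeaCsf1r-Cre values of Cyp26b1, which rest on 40 reads in all, against 316 in control.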
